A study of Mus musculus with 5375 samples.

Results

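The 10 genes described here are markers and transcription factors of epithelial-to-mesenchymal transition (EMT), taken by name from a fixed list: the factors Snai1, Snai2, Zeb1, Zeb2 and Twist1, the epithelial surface genes Cdh1 and Epcam, and the mesenchymal genes Vim, Fn1 and Cdh2. They are 10 of the 35299 genes in the raw tumour cell (TC) tables and of the 35308 in the endothelial tables. In TCs 9 of them passed the filter on low counts and were tested (Cdh2 did not), and in lung endothelial cells (ECs) 8 were tested (Epcam and Twist1 were not). The rule that takes them uses names and no measured value, but the list was drawn up with earlier results of these data known.

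EMT is a programme by which epithelial cells loosen their cell-cell junctions and take up features of motile mesenchymal cells. Snai1, Snai2, Zeb1, Zeb2 and Twist1 encode DNA-binding proteins that act on short motifs called E-boxes, through which the Snai and Zeb proteins repress epithelial genes such as Cdh1. Carcinoma cells often hold epithelial and mesenchymal markers at the same time, a state known as partial or hybrid EMT.

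The samples were single cells from the lungs of wild-type female BALB/c mice, 8 to 12 weeks old. The injected mice received 4T1-GFP cells into the tail vein in 2 injections. 4T1 is a breast cancer line of BALB/c origin, these cells also carried a green fluorescent protein, and all were stained with CellTrace, a dye diluted by division, before injection. ECs came from uninjected mice (day 0) and from injected mice on day 1.5 and day 3.5. On day 1.5 labelled antibody to H-2Kd was injected intravenously minutes before euthanasia. It reaches cells inside vessels, and TCs carrying it formed the intravascular gate and those without it the extravascular gate, both in the same 4 mice (m5 to m8). The day 3.5 gates followed the dye: dye-retaining TCs of 4 mice (m9 to m12) are called latent and dye-poor TCs proliferative. The deposited annotation gives all proliferative cells to 1 mouse (m12), although the labels give that gate 4 replicates and the study's methods state several mice, so how many mice they came from is not settled and they are 1 pool here. Cultured 4T1-GFP cells that were never injected are a further pool. As a model, all TC groups stem from 1 cell line placed directly into the circulation, and each TC gate was sequenced on lanes that no other gate used, so gate and lane cannot be told apart.

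The deposited table of filtered cells held 1566 TCs, slightly more than the study's text states, and all were used: 369 from culture, 325 from the intravascular gate, 306 from the extravascular, 329 from the latent and 237 from the proliferative gate, along with 839, 941 and 699 ECs of days 0, 1.5 and 3.5. Estimated read counts were summed over the cells of each animal and group and are given relative to that sum, in CPM (counts per M reads, M being the mega prefix). The 12 TC libraries of single animals held 69 to 85 cells and 31.9 to 49.9 M reads each, the proliferative pool held 163.5 M and the EC libraries held 75.6 to 129.5 M. Cells had a median of 5721 to 6080.5 detected genes in extravascular, 6293.5 to 6608 in intravascular and 6554.5 to 6869.5 in latent libraries, 7145 in the proliferative pool and 5781 in culture, a gap that bears on every share of cells above 0 below. Of 14 endothelial markers, Cdh5 was above 0 in on average 0.696% to 1.82% of the cells of the 3 animal groups of TCs, against 83.6% of day 0 ECs. Pecam1 was listed above 0 in 79.4% of cultured TCs too, at 9.92 CPM against 1752 CPM in day 0 ECs and it does not set TCs apart from ECs as a yes-or-no marker. Egfl7 was above 0 in 365, and at least 3 endothelial markers in 453, of the 1193 lung TCs without Cdh2. All 14 summed to 39.3 to 88.9 CPM in the TC libraries of single animals and to 23121 to 30317 CPM in day 0 ECs. The keratin genes Krt8 and Krt18 were above 0 in at least 99.3% of the TCs of every group on average, and in at most 3.50% of ECs.

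The proximal promoter of Epcam is shown because it held the E-box to which Snai and Zeb proteins bind, and that of Snai1 because it is the factor found in most TCs. The letters searched were CAGGTG and its reverse complement CACCTG in the 250 bases before the transcription start, and matches are in capitals. The sequences are from RefSeq on build GRCm38.p6, on the plus strand, from chr17:87635729-87635978 for Epcam and chr2:167537945-167538194 for Snai1. Both windows end 1 base before the annotated gene.
Epcam: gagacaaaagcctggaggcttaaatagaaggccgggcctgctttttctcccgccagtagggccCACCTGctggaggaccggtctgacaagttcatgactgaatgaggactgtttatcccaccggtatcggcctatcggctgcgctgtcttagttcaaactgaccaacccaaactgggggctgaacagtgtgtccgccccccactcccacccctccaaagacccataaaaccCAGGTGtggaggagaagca
Snai1: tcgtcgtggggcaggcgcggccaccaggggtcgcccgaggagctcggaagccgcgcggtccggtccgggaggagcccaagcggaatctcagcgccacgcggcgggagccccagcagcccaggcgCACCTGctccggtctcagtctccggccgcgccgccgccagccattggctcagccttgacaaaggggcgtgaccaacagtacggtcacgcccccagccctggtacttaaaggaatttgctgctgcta
In Epcam the matches began at positions -187 and -19 from the start, and in Snai1 at position -126. The table held windows for 5 members, and those of Vim, Zeb2 and Twist1 had no match. At least 1 match was present in 17.2% of all 32851 windows, and at least 2 in 2.06%. A match of these letters is a description of the window, not a measured binding site. By the GENCODE M21 annotation (GRCm38) Vim lies on chr2:13573927-13582826, Fn1 on chr1:71585520-71653200, Cdh1 on chr8:106603351-106670246, Epcam on chr17:87635979-87651129 and Snai1 on chr2:167538195-167542814, and all are protein-coding. Fn1 shares its span with Apol7d, Zeb2 with 5 and Zeb1 with 3 other annotated genes, and no stranded counting is stated, so reads of overlapping genes cannot be told apart.

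The TCs carried epithelial and mesenchymal markers in the same cells. Transcripts of Vim, which encodes the mesenchymal filament protein vimentin, were above 0 in 96.2% of cultured and in 97.6% to 100% of lung TCs per library. Epcam, which encodes an adhesion protein of epithelia, was above 0 in 89.3% to 98.7% of TCs per animal, in 92.8% of the proliferative pool and in 95.9% of culture. Cdh1, the gene of E-cadherin in epithelial junctions, was above 0 in 71.25% to 88.1% of TCs per animal, 73.4% of the proliferative pool and 77.8% of culture. Fn1, which encodes the matrix protein fibronectin, was above 0 in 95% or more of TCs in every animal. Cdh1 and Vim were both above 0 in 262 of 325 intravascular cells (80.6%), 235 of 306 extravascular (76.8%), 275 of 329 latent (83.6%), 174 of 237 proliferative (73.4%) and 276 of 369 cultured cells (74.8%). All of Cdh1, Epcam, Vim and Fn1 were above 0 in 69.2% to 80.9% of the cells of a lung group and in 72.1% of cultured cells. The reverse states were rare: Vim without Cdh1 and Epcam was seen in 1.54% of intravascular, 3.27% of extravascular, 3.34% of latent, 3.80% of proliferative and 1.90% of cultured cells, and Cdh1 or Epcam without Vim in 0.615%, 0.327%, 0.912%, 0 of 237 and 3.79%. A count of 0 in 237 cells allows a share of up to 1.27%, and such limits cover counting error only. Vim without Cdh1, whether or not Epcam was above 0, was more common. It was seen in 18.8% of intravascular, 22.9% of extravascular, 15.5% of latent, 26.6% of proliferative and 21.4% of cultured cells.

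Per kilobase of annotated exons, counting the exons of all transcripts of a gene, Vim was the highest member in every TC group, at 117 CPM per kb in culture and 558 in the proliferative pool. Epcam came next in all 5 TC groups (107 to 169 CPM per kb), then Fn1 (18.1 to 48.8), with Cdh1 at 11.05 to 22.5. Among the factors Snai1 was highest at 6.28 to 15.2 CPM per kb, followed by Twist1 at 2.33 to 3.65 and Zeb2 at 0.276 to 0.662. The order of Twist1 and Zeb2 rests on the length used, 1.63 kb for Twist1 and 19.9 kb for Zeb2. By CPM Zeb2 was above Twist1 in every TC group, at 13.2 against 5.39 CPM in latent TCs. Fn1 was likewise above Epcam by CPM in intravascular (327 against 270) and latent TCs (571 against 372). Zeb1 was at most 0.172 and Snai2 at most 0.156 CPM per kb in a TC group, and Cdh2, the gene of N-cadherin, whose gain accompanies loss of E-cadherin in EMT, was nearly absent. Day 0 ECs had another order: Vim (147 CPM per kb) was followed by Zeb1 (7.03), Snai2 (4.14) and Zeb2 (3.63), with Cdh1 at 0.129 and Epcam at 0.00388.

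**Figure D1:**
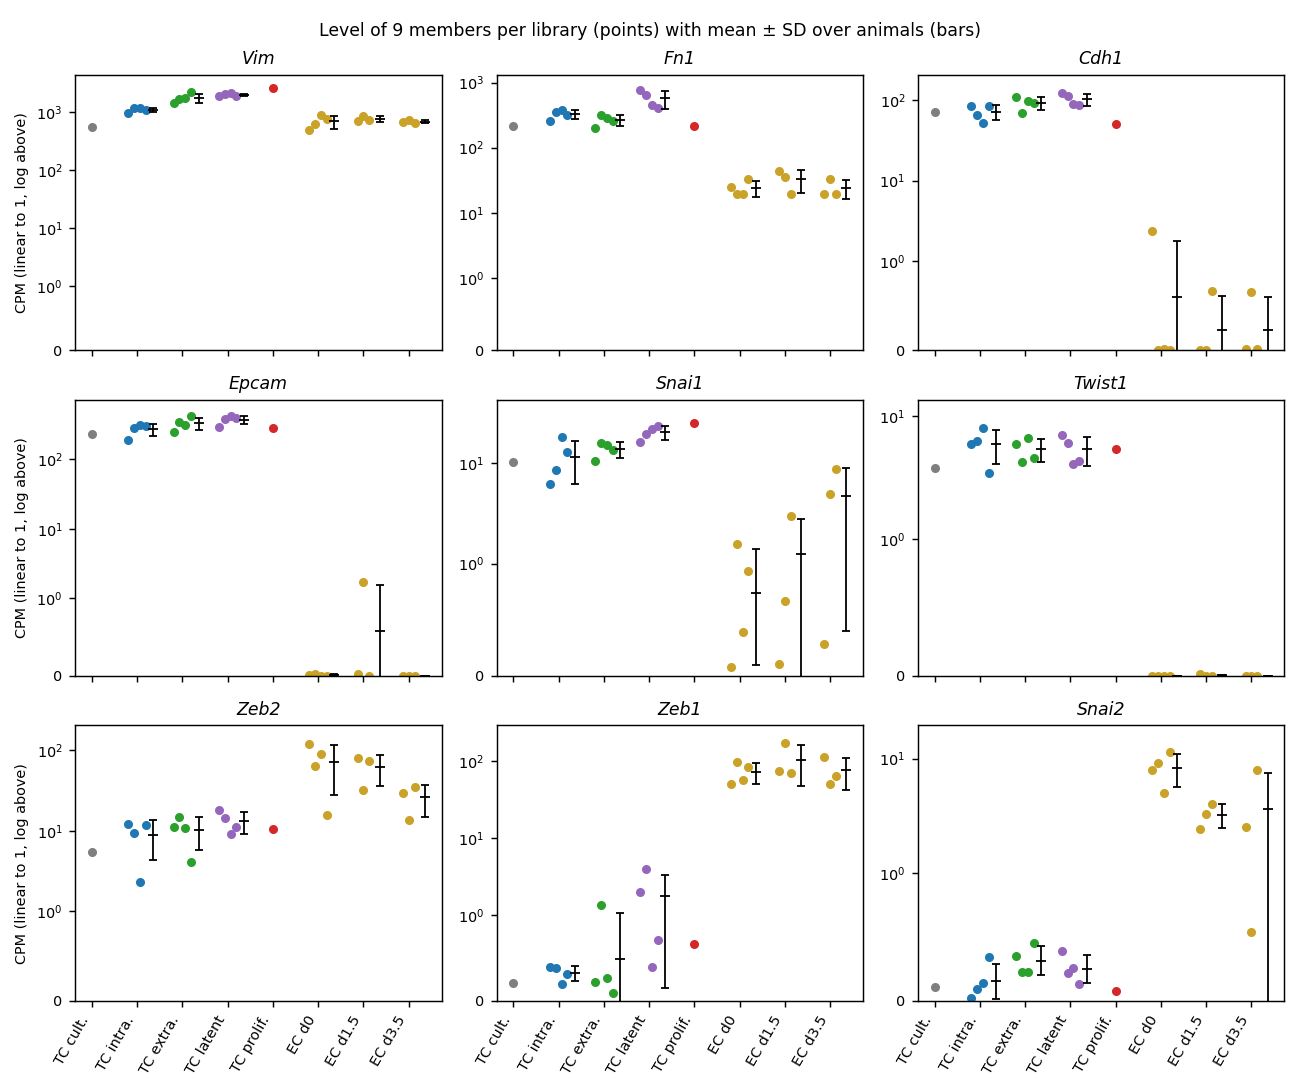
Level of 9 members (CPM, y axis linear up to 1 and logarithmic above) in each library, for cultured (cult.), intravascular (intra.), extravascular (extra.), latent and proliferative (prolif.) TCs and for ECs by day (x axis); each point is 1 animal or pool, and bars give mean ± SD over the 4 or 3 animals of a group, cut off at 0. Vim increases from the culture pool (553 CPM) to the proliferative pool (2647 CPM), Fn1 is highest in latent TCs, and ECs hold Zeb1 but nearly no Cdh1 or Epcam.

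Vim was higher in extravascular than in intravascular TCs. It stood at 984, 1179, 1188 and 1117 CPM in intravascular TCs of mice m5, m6, m7 and m8 and at 1458, 1691, 1798 and 2202 CPM in extravascular TCs of the same mice. Every extravascular library was above every intravascular one, and each mouse showed the difference; the CPM of 8.43% of all tested genes did not overlap either. The log2 fold change was 0.60 ± 0.11 (SE, n = 4 against 4 libraries, quasi-likelihood test of edgeR, Benjamini-Hochberg adjusted p = 0.0305). Vim was the only one of the 9 tested members called, against 0.951% of all 19249 genes (183 genes, 80 higher and 103 lower, or 43.7% higher). Without scaling beyond library size 71.5% of the calls were higher, and with upper quartile scaling 23.2%, while Vim was called under both. With the animal as a replicate block the change of Vim was 0.59 with an adjusted p of 0.0523, so the call was lost, and 34 of 14697 genes were called. It was also lost without extravascular m6, m7 or m8 or intravascular m5, m6 or m8 (log2 fold changes 0.48 to 0.62, adjusted p 0.0525 to 0.0844), and kept without extravascular m5 or intravascular m7. DESeq2 gave Vim an adjusted p of 0.000248 and called 6.88% of all genes (1325 of 19249).

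Vim was higher still in the proliferative pool and lowest in culture. Latent TCs held 1897, 2042, 2127 and 1927 CPM (m9 to m12), which overlapped the extravascular libraries (0.02 ± 0.11 log2, adjusted p = 0.932). The proliferative pool held 2647 CPM, above all 4 latent libraries, as 21.2% of all tested genes were. The culture pool held 553 CPM, below every lung library, as 9.30% of all tested genes were. The ratio of group means was 2.02 for intravascular and 3.23 for extravascular TCs relative to culture, without a test since culture has no replicate. The median cell moved with the sums: the median over cells was 819 to 878 CPM in intravascular, 1066 to 1475 in extravascular and 1233 to 1440 in latent libraries, 2190 in the proliferative pool and 275 in culture. Within a single library the 10th and 90th percentiles of cells lay far apart, at 214 to 339 and 2260 to 2819 CPM in intravascular TCs.

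Fn1 was higher in latent TCs than in extravascular TCs. It stood at 782, 643, 446 and 412 CPM in latent mice m9 to m12 and at 201, 317, 290 and 254 CPM in extravascular mice m5 to m8, so that the groups did not overlap. The log2 fold change was 0.96 ± 0.21 (SE, edgeR, adjusted p = 0.0121, n = 4 against 4). It was the only one of 9 members called, where 8.57% of all genes were called (1650 of 19249), 3.60% higher and 4.97% lower. Of those calls 42.0% were higher in latent TCs, and 61.9% without scaling beyond library size. Fn1 was called under each alternative that was run, with log2 fold changes of 0.71 to 1.10. In latent m9, the highest library, 28.2% of the Fn1 reads came from 1 cell. The intravascular level, 255, 350, 383 and 318 CPM, overlapped the extravascular one (-0.38 ± 0.21 log2, adjusted p = 0.369). Fn1 in the proliferative pool (211 CPM) and in culture (212 CPM) was below every latent and intravascular library, as 7.04% of all tested genes were in the pool and 14.1% in culture, and 1 extravascular library (m5) was lower still.

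Some markers of other cell types were also called higher in latent than in extravascular TCs, beside 3.60% of all genes. They were 1 of 11 tested immune, 1 of 9 fibroblast and mural, 1 of 10 lung epithelial, 1 of 6 platelet and 0 of 13 endothelial markers. Lyz2, of macrophages and granulocytes, was at 0.0287 to 221 CPM in latent libraries (adjusted p = 0.0226 in edgeR), and Pf4, of platelets, at 0.0667 to 2.29 CPM (adjusted p = 0.0375 in edgeR), both at 0 in every extravascular library. Pf4 was called in 1 of 8 fits that left out a library (without latent m10). The summed level of the 12 immune markers was 0.453 to 5.18 CPM in extravascular libraries, with Fcer1g, Lyz2, Cd52 and S100a9 at 0 in all of them. In latent libraries it was 4.86 to 274 CPM, with none at 0, and m9 (274 CPM) and m12 (209 CPM) stood apart from m10 (5.36 CPM) and m11 (4.86 CPM), which were near the highest extravascular library. The 12 fibroblast and mural markers summed to 1.95 to 4.92 CPM in extravascular and 1.46 to 17.1 CPM in latent libraries, with Col3a1, Pdgfrb, Des and Rgs5 at 0 in the latent ones, and the groups overlapped. The 14 endothelial markers summed to 39.3 to 57.5 and 55.1 to 88.9 CPM, also with overlap, the 11 lung epithelial markers to 15.5 to 34.6 and 40.0 to 129 CPM and the 7 platelet markers to 0.693 to 2.45 and 4.80 to 8.27 CPM. In the culture pool, never in a lung, the endothelial markers summed to 41.8 CPM and the lung epithelial markers to 36.7 CPM. Wells above 0 in any of Cdh5, Cldn5, Ptprc, Lyz2, Dcn, Sftpc or Pf4 made up 94 of 325 intravascular, 18 of 306 extravascular and 52 of 329 latent cells. Without them, an alternative chosen after the data were seen, Fn1 in latent TCs was 540, 545, 428 and 377 CPM and the log2 fold change fell to 0.71 (adjusted p = 0.0328). Vim between extravascular and intravascular TCs was then 0.60 (adjusted p = 0.0435). Beyond this, the part of such RNA in the results was not tested.

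**Figure D2:**
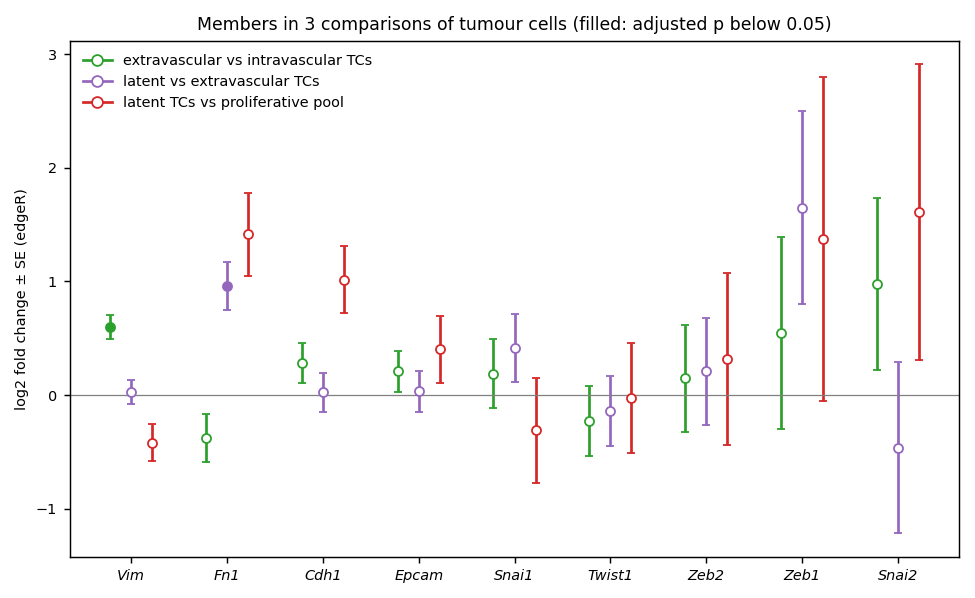
Log2 fold change ± SE (edgeR, y axis) of 9 members in 3 comparisons of TCs, named in the key; filled points have an adjusted p below 0.05. Vim between extravascular and intravascular TCs and Fn1 between latent and extravascular TCs are the 2 filled points, and the error bars of Zeb1 and Snai2 are the widest.

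Neither epithelial marker passed the test between lung groups sampled by animal. Cdh1 was 83.9, 66.4, 52.4 and 85.4 CPM in intravascular, 110, 69.3, 98.1 and 91.8 CPM in extravascular and 123, 113, 89.8 and 86.7 CPM in latent TCs. The groups overlapped, with a log2 fold change of 0.28 ± 0.17 for extravascular versus intravascular (adjusted p = 0.428, 95% interval -0.06 to 0.62) and 0.02 ± 0.17 for latent versus extravascular TCs (adjusted p = 0.967, -0.32 to 0.36). Epcam was 188, 278, 308 and 306 CPM in intravascular, 251, 342, 313 and 415 CPM in extravascular and 296, 381, 420 and 390 CPM in latent TCs. Its changes were 0.21 ± 0.18 (adjusted p = 0.592, -0.14 to 0.57) and 0.03 ± 0.18 log2 (adjusted p = 0.950, -0.32 to 0.39). These intervals do not show that the levels were equal. The sign of all 4 changes depended on the processing: on mean log10 values, which weight each cell alike, Cdh1 was -0.28 and Epcam -0.078 log2 in extravascular versus intravascular TCs, and with upper quartile scaling they were -0.018 and -0.010 log2 in latent versus extravascular TCs.

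The proliferative pool had the lowest Cdh1 of the 5 TC groups, 50.5 CPM, below each latent and each intravascular library. The CPM of 40.5% of all tested genes lay outside the latent range in that pool. Latent TCs exceeded it by 1.01 ± 0.30 log2 for Cdh1 (unadjusted p = 0.00448, adjusted p = 0.759) and by 1.42 ± 0.36 log2 for Fn1 (unadjusted p = 0.0019, adjusted p = 0.675) in edgeR. Vim was lower in latent TCs by 0.42 log2 (SE 0.16, unadjusted p = 0.0232, adjusted p = 0.923). edgeR called 0 of 9 members and 0% of 19249 genes in this comparison, where 977 genes had an unadjusted p under 0.05. DESeq2 called 89 genes, among them Cdh1 and Fn1, and limma called 123 of 13283, among them Vim and Fn1. With 4 libraries against 1 pool the pool's own spread is unknown and was assumed to be that of the other groups, and the smallest 2-sided exact permutation p would be 0.2.

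Snai1, the factor gene with the highest level in TCs, was 6.15, 8.44, 18.01 and 12.7 CPM in intravascular, 10.3, 15.8, 15.0 and 13.4 CPM in extravascular and 16.2, 19.1, 21.8 and 23.1 CPM in latent TCs, 24.7 CPM in the proliferative pool and 10.2 CPM in culture. The intravascular and extravascular libraries overlapped. Latent libraries lay above all extravascular ones, but the change of 0.42 ± 0.30 log2 did not pass the test (adjusted p = 0.441). The CPM of 2 of the 9 tested members, Fn1 and Snai1, did not overlap between these groups, beside 16.7% of all genes tested. Snai1 was above 0 in 40 to 47.8% of extravascular cells per animal, 45.1 to 61.25% of intravascular, 63.5 to 68.75% of latent, 78.5% of proliferative and 43.1% of cultured cells.

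Shares of cells above 0 were compared over animals by a 2-sided exact permutation test, whose smallest p with 4 against 4 is 0.0286 (20 tests, 10 genes in 2 comparisons). Between latent and extravascular TCs Snai1 rose by 21.2 percentage points (66.0 ± 2.16% against 44.8 ± 3.66%, SD, n = 4, exact p = 0.0286). Zeb2 was 40.4 ± 1.68% against 30.4 ± 5.43%, a difference of 10.02 points (exact p = 0.0286). For these 2 of 10 members the libraries did not overlap, as they did not for 18.2% of all genes detected, 15.4% being higher and 2.75% lower in latent TCs. With each cell thinned to 100000 reads the Snai1 difference was 17.4 points (50.2% against 32.8%) and that of Zeb2 9.03 points, both still without overlap, and then Cdh1 (78.7% against 66.6%) and Fn1 (96.5% against 90.6%) did not overlap either, beside 21.7% of all genes. Thinning left out 21 latent and 12 extravascular cells. Counting only cells with 5 reads or more, 0 members were without overlap, beside 2960 of 18516 genes, and the differences were 11.7 points for Snai1 (exact p = 0.0571) and 6.66 points for Zeb2 (exact p = 0.143).

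Twist1, the gene of a helix-loop-helix factor of mesoderm and neural crest, was found in fewer extravascular than intravascular cells of every mouse. The same held for Snai1, so that 2 of 10 members were lower in all 4 mice, a share near the 18.6% of all genes that were. The share was 43.9, 43.0, 32.5 and 29.8% in intravascular and 18.7, 31.25, 26.1 and 23.2% in extravascular TCs of m5 to m8. The difference of -12.5 points had an exact p of 0.0571, since m6 extravascular lay above m8 intravascular. After thinning it was -9.15 points (exact p = 0.0571). No member's shares were without overlap in this comparison, whereas 0.919% of all genes were higher and 9.10% lower without overlap. Its CPM went from 5.94 ± 1.86 to 5.38 ± 1.16 (-0.23 ± 0.31 log2, adjusted p = 0.757), whereas limma on mean log10 values called Twist1 lower, as it called 15.1% of all genes. The difference of Snai1 was -9.42 points (exact p = 0.0857), or -2.24 points after thinning. The paired test on the 4 mice cannot go below p = 0.125.

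Zeb2 was 2.29 to 12.2 CPM in intravascular, 4.09 to 15.0 in extravascular, 9.06 to 18.4 in latent, 10.5 in proliferative and 5.51 in cultured TCs, and was not called by edgeR in any comparison. By limma on mean log10 values it was called in latent versus extravascular TCs (0.76 log2, adjusted p = 0.0159), where limma called 40.3% of all genes. Zeb1 stayed at trace levels in TCs. It was 0.200 to 0.393 CPM in intravascular, 0.0893 to 1.37 in extravascular and 1.996, 3.94, 0.401 and 0.714 CPM in latent TCs of m9 to m12, and 47.1% of all its latent reads came from 1 cell. The change between latent and extravascular TCs was 1.65 ± 0.85 log2 (adjusted p = 0.259), and Zeb1 was called without extravascular m6. The 83 lung TCs above 0 for Zeb1 held Krt8 in 83, Epcam in 79 and Cdh5 in 1 of 83 cells. Of other endothelial markers, Pecam1 was above 0 in 68, Egfl7 in 27 and Ramp2 in 7 of them. At least 3 endothelial markers were above 0 in 45.8% of these cells and in 37.5% of the lung TCs at 0 for Zeb1. Snai2 was at most 0.458 CPM in any TC library. Cdh2 had a read in 1 intravascular, 0 extravascular, 1 latent and 2 proliferative cells, and 0 of 306 extravascular cells allows a share of up to 0.980%.

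**Figure D3:**
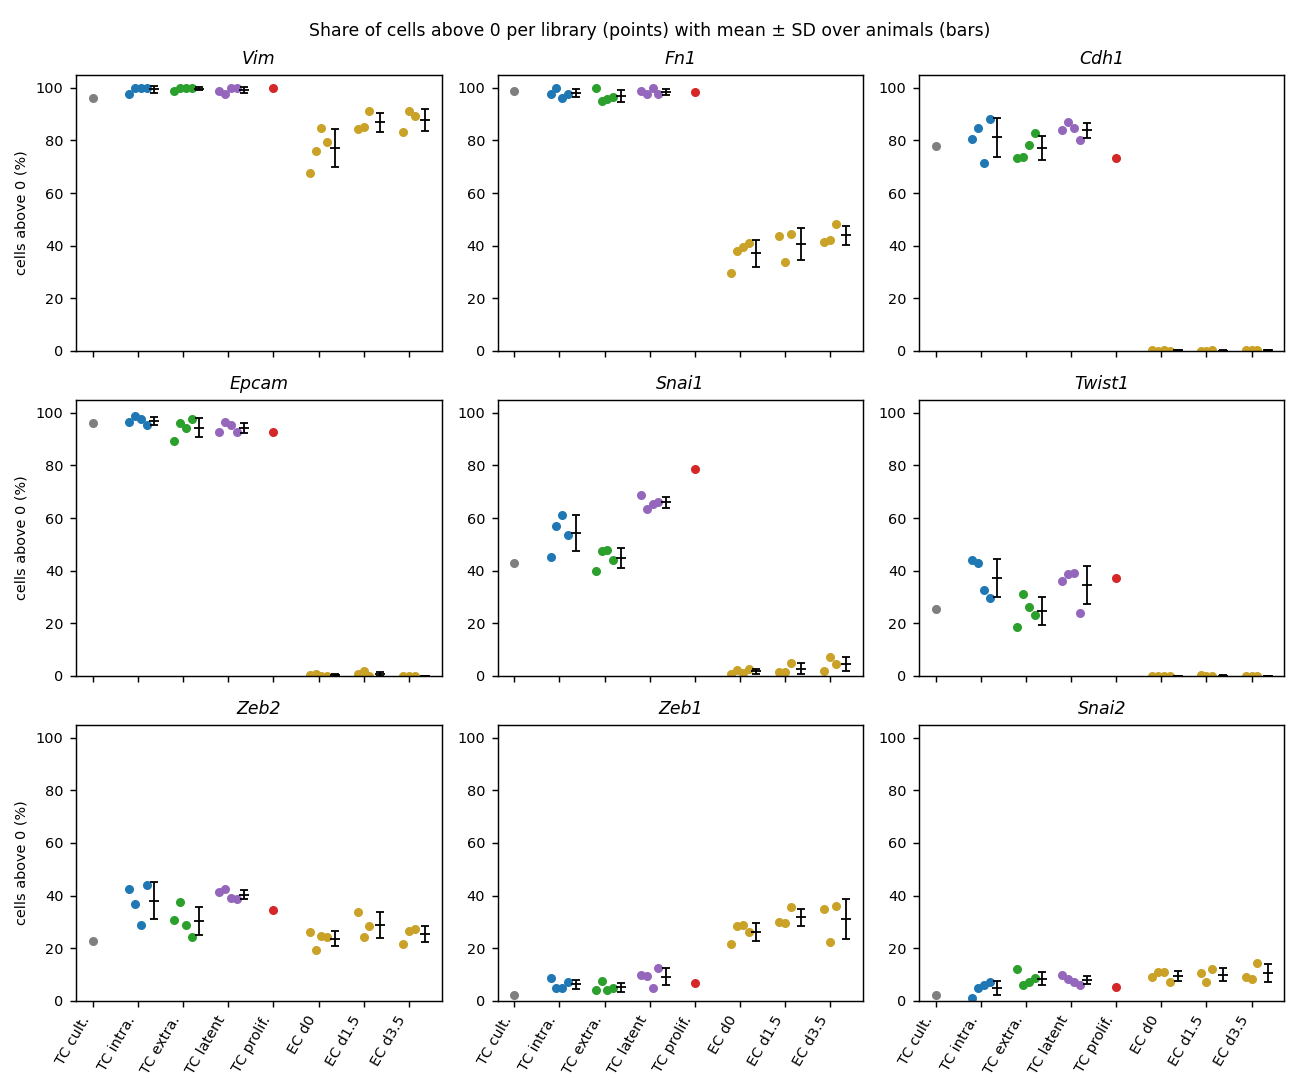
Share of cells above 0 (%, y axis) for 9 members in each library, grouped on the x axis by TC gate and EC day; each point is 1 animal or pool and bars give mean ± SD over animals. The 4 latent libraries (63.5 to 68.75%) lie above all extravascular libraries for Snai1, and those of Vim, Fn1 and Epcam are near the ceiling in all TC groups.

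At least 1 of the 5 factors was above 0 in most TCs, and the counts of factors per cell are given as a description, without a test. No factor was above 0 in 66 of 325 intravascular (20.3%), 96 of 306 extravascular (31.4%), 50 of 329 latent (15.2%), 25 of 237 proliferative (10.5%) and 124 of 369 cultured cells (33.6%). At least 2 factors were above 0 in 44.0, 34.6, 52.9, 55.3 and 26.6% of these groups. Per animal the share with at least 2 factors was 40 to 50.6% in intravascular, 30.5 to 39.1% in extravascular and 48.8 to 56.3% in latent TCs, in the same order as the number of detected genes given above. Shares were higher in latent than in extravascular TCs without overlap for 15.4% of all genes, as given above, and the part of the number of detected genes was not tested beyond the thinning of single genes.

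Co-expression over single cells was taken as Spearman's rho of log2(CPM + 1) within each of the 12 animal libraries of TCs (69 to 85 cells each), so that differences between groups do not enter. The cells of a library share their lane, and each value is a description. Vim and Cdh1 had a mean rho of -0.00057 (-0.19 to 0.11) and 7 of 12 libraries above 0. Cdh1 and Epcam went together in 12 of 12 libraries (mean 0.25, 0.11 to 0.38). Cdh1 also went with Fn1 in 12 of 12 libraries (mean 0.30, 0.21 to 0.50), and Epcam with Fn1 (mean 0.26, 0.12 to 0.45).

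Vim had its highest mean rho among the members with Snai1 (0.28, 0.06 to 0.45, 12 of 12 libraries), followed by Fn1 (0.20) and Twist1 (0.18). Both Vim and Snai1 rose with the number of genes detected in a cell, with mean rho of 0.34 and 0.39, and given that number the mean rho of Vim was 0.17 with Snai1 (0.0027 to 0.32) and also 0.17 with Fn1 (-0.03 to 0.39), so Snai1 no longer came first. Snai1 with Cdh1, its classical target of repression, had a mean rho of -0.03 (-0.19 to 0.16, 3 of 12 libraries above 0), or -0.07 given the number of genes. Cdh1 was above 0 in 80.1% of the intravascular cells with Snai1 and in 82.6% of those without it, in 79.6% and 75.1% of extravascular, in 85.3% and 81.25% of latent and in 72.0% and 78.4% of proliferative cells, so the direction was not the same in all groups. Zeb2 with Epcam was at -0.06 on average, and Zeb2 with Cdh1 at 0.08. Among the factors the highest mean rho was that of Snai1 with Twist1 (0.13), or 0.02 given the number of genes. In the proliferative pool Vim with Snai1 was 0.34 and Cdh1 with Epcam 0.26, and in culture these were 0.23 and 0.09.

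**Figure D4:**
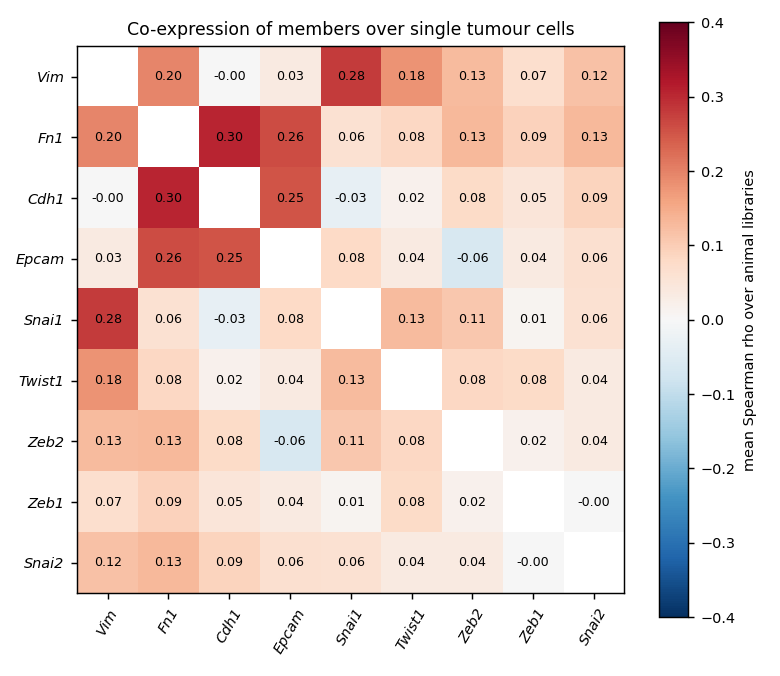
Mean Spearman rho of log2(CPM + 1) over single TCs, averaged over up to 12 animal libraries, for pairs of 9 members (both axes); red is positive, blue negative. The block of Cdh1, Epcam and Fn1 (0.25 to 0.30) and the pair Vim and Snai1 (0.28) stand out, and Vim with Cdh1 is at 0.

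Among 5468 genes above 0 in at least 50% of lung TCs, the 5 most like Vim over the 12 libraries were Anxa2, which encodes a membrane-binding annexin (mean rho 0.63, 0.51 to 0.78), Pkm, of glycolysis (0.59), Eef1a1, of translation (0.58), Tagln2 (0.55) and Actg1, a cytoplasmic actin (0.54). The lowest were Cox4i1 (-0.49), Gm28900 (-0.52) and Gm10163 (-0.53). The most like Cdh1 were Fn1 (0.30), Nisch (0.29), Itgb1, an integrin subunit (0.29), Ahnak (0.28) and Iqgap1 (0.28), and the lowest were Gm8199 (-0.21), Rpl6 (-0.21) and Dtymk (-0.22).

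More genes of the programme were called between latent and extravascular TCs than between extravascular and intravascular TCs, as over all genes (8.57% and 0.951%). Of the epithelial junction and keratin genes 29 were tested, 7 rose and 0 fell in latent TCs, beside 3.60% higher and 4.97% lower over all genes, with a median of 0.47 log2 against 0.03 for all genes. The count fell to 2 to 6 when a library was left out, and without latent m10 only Cldn3 and Krt19 were called. Cldn3, a tight junction claudin, rose from 111 to 217 CPM (0.84 ± 0.14 log2, adjusted p = 0.00258). Krt19 rose by 1.28 ± 0.27 log2 (adjusted p = 0.00923 in edgeR), and Cldn4 rose from 42.996 to 107 CPM (adjusted p = 0.0142 in edgeR, and 0.0511 without latent m10). Jup was called in 3 and F11r, Spint2 and Dsp in 2 of 8 fits that left out a library. Of 14 epithelial transcription and splicing factors 4 rose and 0 fell (median 0.54 log2): Klf5 (0.98 log2), Klf4 (2.29 log2), Ovol2 (3.54 log2, at 0.258 and 3.35 CPM) and Gata3 (0.66 log2). Ovol2, known as a repressor of Zeb1, was no longer called without extravascular m6 or m8 or latent m9 or m11, and Gata3 was called in 1 of 8 fits that left out a library (without extravascular m8). The lung epithelial markers summed to 15.5 to 34.6 CPM in extravascular and 40.0 to 129 CPM in latent libraries as given above. Only 1 of their 10 tested genes, the water channel gene Aqp5, was called (1.93 log2, adjusted p = 0.00456 in edgeR). Aqp5 alone was at 10.6 to 26.5 CPM in extravascular and 34.6 to 121 CPM in latent libraries, so these sums are largely that 1 gene. It was also called without wells holding a marker of another cell type (1.81 log2, adjusted p = 0.00337 in edgeR). The culture pool, never in a lung, summed to 36.7 CPM, with Sftpc, Sftpb, Sftpa1, Sftpd and Hopx at 0. Without the wells holding a marker of another cell type, 4 of 28 junction and keratin genes and 2 of 14 factors rose, beside 463 of all 18316 genes. The list genes that rose included Cldn3 (0.68 log2, adjusted p = 0.00146 in edgeR), Krt19 (1.09 log2, adjusted p = 0.0279), Klf5 (1.02 log2) and Klf4 (2.26 log2). Ovol2 (3.81 log2, adjusted p = 0.0596) and Gata3 (0.63 log2, adjusted p = 0.0793) were not called, though their changes were about as large as with all wells. Against intravascular TCs, 0 of the 29 and 0 of the 14 genes were called in extravascular TCs by edgeR. At an unadjusted p under 0.05 there were 8 and 2, beside 3382 of all 19249 genes.

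Mesenchymal genes moved both ways. Of 32 tested matrix and cytoskeleton genes 3 rose and 5 fell in latent versus extravascular TCs (median -0.19 log2), again beside 3.60% higher and 4.97% lower over all genes. S100a4 rose from 3845 to 7509 CPM (0.83 ± 0.15 log2, adjusted p = 0.00352), as did Sparc (0.90 log2). Postn was called at 0.0314 to 4.00 CPM in latent and at most 0.0208 CPM in extravascular libraries, with a latent mean of 1.29 CPM and of 0.390 CPM without m10. It was called in 2 of 8 fits that left out a library (without latent m9 or m12). Without marker wells it was not called (adjusted p = 0.0597 in edgeR), though its change was 6.87 log2 against 7.08 log2 with all wells. Dcn, a fibroblast marker, was called too (0.0509 to 14.6 CPM in latent libraries). Itgb1 fell by 1.04 log2 (adjusted p = 2.2e-05), Nes by 1.44 log2, Lgals1 by 0.46 log2, Axl by 0.92 log2 and Loxl2 by 1.36 log2. Loxl2 was not called without latent m9 or m12. Of the other EMT transcription factors 13 were tested and Sox9 alone rose (22.6 to 60.03 CPM, 1.27 ± 0.22 log2, adjusted p = 0.00234). Of 19 TGF-beta pathway genes Ltbp1 (0.32 log2) and Tgif1 (0.58 log2) rose and Tgfb1 fell by 1.83 log2, from 11.3 to 3.51 CPM. Ltbp1 was called in 2 and Tgif1 in 0 of 8 fits that left out a library (0.28 to 0.35 and 0.55 to 0.61 log2). Neither was called without marker wells (0.28 and 0.52 log2), while Tgfb1 was called in all of these fits. On the EMT list of the study (384 genes, 335 tested, 6 of them members), 4 rose and 2 fell in extravascular versus intravascular TCs (1.19% and 0.597% of the tested list, beside 0.416% and 0.535% of all genes). In latent versus extravascular TCs 36 rose and 18 fell (10.7% and 5.37%, beside 3.60% and 4.97% of all genes). Without marker wells 27 rose and 13 fell of 323 tested, beside 463 and 741 of all 18316 genes. When a library was left out, 28 to 35 rose and 13 to 17 fell. The lists overlap: the 36 genes include the member Fn1, Klf4, Klf5 and F11r, counted above as epithelial, and the fibroblast marker Dcn. Plaur, the urokinase receptor, rose by 1.29 ± 0.21 log2 and Igfbp4 by 0.78 ± 0.14 log2 in extravascular TCs, as did Rhoa (0.60 log2) and the member Vim, while Mgp fell by 2.65 log2 and Pfn1 by 0.33 log2. Mgp averaged 172.6 CPM in intravascular libraries (60.7 to 408 CPM) and 94.3 CPM without m7, against 29.5 CPM in extravascular ones. Intravascular m7 also stood apart in fibroblast and mural markers (23.7 CPM) and platelet markers (10.6 CPM). In m5, m6 and m8 these were 1.50 to 3.34 and 0.586 to 2.10 CPM. Without marker wells the change of Mgp was -0.55 log2 (adjusted p = 0.61), and Rhoa (0.50 log2, adjusted p = 0.0857) and Pfn1 (-0.33 log2, adjusted p = 0.0635) were not called either, so that 3 of the 6 calls were lost. In that fit 4 genes of the list rose and 1 fell. Over all genes 42 rose and 53 fell of 18316, where with all wells it was 80 and 103 of 19249. When a library was left out, Plaur was called in 4 of 8 fits and Igfbp4, Rhoa, Mgp and Pfn1 in 1 of 8 each, and the list held 0 to 8 genes that rose and 0 to 4 that fell. In latent TCs Klf6 rose by 1.08 log2, Ecm1 by 1.28 log2 and Ubb by 0.92 log2, and Arhgef40 fell by 1.54 log2 and Plekha3 by 1.91 log2. By the study's methods the list came from MSigDB, a public collection of gene sets. Both comparisons share the extravascular libraries.

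In ECs, the reference, Vim was the one marker shared with TCs at a high level: 498, 616, 911 and 758 CPM on day 0, 697, 871 and 728 CPM on day 1.5 and 690, 732 and 658 CPM on day 3.5. All 10 values were below the lowest lung TC library (984 CPM), and the 3 days overlapped. Zeb1 stood at 50.8 to 97.7 CPM on day 0, 69.2 to 170 on day 1.5 and 50.9 to 114 CPM on day 3.5, against at most 3.94 CPM in a TC library. Zeb2 was 15.7 to 120, 31.8 to 79.5 and 13.7 to 35.4 CPM, Snai2 5.03 to 11.4, 2.45 to 3.99 and 0.540 to 7.91 CPM and Fn1 19.1 to 44.2 CPM over all days. Twist1 was above 0 in 1 of 941 day 1.5 cells and in 0 of 839 and 0 of 699 cells on days 0 and 3.5, which allow up to 0.358% and 0.429%. Cdh1 was above 0 in 2, 1 and 3 and Epcam in 3, 7 and 0 cells of the 3 days.

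The tested members were not called in ECs on either day. edgeR called 0 of 8 members and 0% of 17585 genes on day 1.5 and on day 3.5 versus day 0, with 1422 and 1541 genes at an unadjusted p under 0.05, 1 member among them on each day. DESeq2 called 355 and 474 and limma 282 and 423 genes, none of them a member. On counts simulated from these libraries, edgeR called 3 of 100 genes raised 2-fold and 52 of 100 raised 4-fold on day 1.5 versus day 0. The absence of calls therefore does not show that the members were stable. Zeb2 on day 3.5 had the smallest p, at -1.51 ± 0.64 log2 (unadjusted p = 0.0385, adjusted p = 0.539, 26.3 ± 11.3 against 72.3 ± 44.1 CPM), and on day 1.5 Cdh2 (unadjusted p = 0.0269, adjusted p = 0.568), which rests on 5 of 941 cells. The CPM of Snai2 did not overlap between day 1.5 and day 0, beside 7.49% of all genes (-1.44 ± 0.88 log2, adjusted p = 0.715). In day 0 mice m2 and m4 1 cell held 80.8% and 90.4% of the Snai2 reads, and the share of cells above 0 overlapped, at 7.22 to 11.1% on day 0 and 7.17 to 12.2% on day 1.5. On day 3.5 the CPM of all 8 tested members overlapped with day 0, whereas 7.88% of all genes did not. With the 2 day 0 mice sorted in the same session as each later day, a comparison added after the data were seen, 0 members were called either.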

How the data were processed

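Single cells were sorted into wells and sequenced by SMART-Seq2, which reads whole transcripts without molecular identifiers. The authors estimated counts per gene with Salmon 0.7.2 on GRCm38 (annotation release not given in the sources used here) and deposited these estimated counts unfiltered, one lane a table. They kept wells by detected genes and mitochondrial reads and, for ECs, by markers of other cells. Their deposited log10 values are counts scaled by the mean of a housekeeping panel. The deposited capillary EC subset was not used. No doublet caller was run here.

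Over kept cells, the estimated counts were added up per animal and gate, then rounded. edgeR 4.0.16 (R 4.3.3; TMM scaling, filterByExpr, quasi-likelihood test, Benjamini-Hochberg over all genes tested, threshold 0.05) was fitted on 13 lung TC libraries or on 10 EC libraries, each with 1 shared estimate of the spread. CPM were taken from unscaled library totals. Intervals are the log2 fold change ± 1.96 SE. Shares were compared by exact permutation with scipy 1.17.1 (Python 3.11.15). Spearman's rho used log2(CPM + 1), for genes above 0 in at least 5 cells of a library. Alternatives were DESeq2 1.42.0, limma 3.58.1 on mean log10 values, other scalings, filters and cell sets, thinning to 100000 reads and leaving out each library. The code was tested on simulated data.

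Intravascular and extravascular cells came from the same 4 mice by the deposited annotation. The deviations of same-mouse libraries from their group means correlated at 0.22, 0.06, 0.08 and -0.03 over 7665 genes. The other TC and EC comparisons are between different mice, except that the deposited annotation gives the proliferative pool mouse m12, which latent TCs also have. P-values measure the spread between these mice. The members and lists were chosen with earlier results of these data known. All 10 members are named, and from the other lists up to 3 called genes per direction with the smallest p in each comparison, and further, after their values were seen, Gata3, Axl, Loxl2, Rhoa, Jup, F11r, Spint2 and Dsp.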

Additional observations from a re-analysis of the deposited data

Results flagged for a closer look

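In 66 groups of 4 libraries, the highest or lowest value was set against the others by Dixon's test at 95%, which chance passes in about 1 in 20 groups, and 3 groups held a value that stood apart. Vim was above 0 in 97.6% of intravascular cells of m5 and in 98.7% of extravascular cells of m5, where the other libraries of both groups were at 100%, so that any library with a single cell at 0 would have stood apart in this test. Zeb1 stood at 1.37 CPM in extravascular m6, and 31.1% of the Zeb1 reads of that group came from 1 cell.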

How the results depend on the processing

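All values here are log2 fold changes or numbers of members, and where a sign turned, no cause was tested. With mouse as a replicate block, 0 members were called in extravascular versus intravascular TCs (Vim 0.59, adjusted p = 0.0523 by edgeR, and Zeb1 -0.13), and for shares 3 of 10 members (Snai1, Snai2 and Twist1) moved one way in all 4 pairs, beside 22.3% of all genes. No paired analysis was possible for latent versus extravascular TCs and for ECs because the groups come from different mice, and for the proliferative pool because its cells could not be tied to several mice; that gate as 4 labelled replicates, with or without a block, was not run.

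By limma on mean log10 values, which tested 7 members, 2 were called in extravascular versus intravascular TCs (Vim, Twist1; 15.1% of all genes), 3 in latent versus extravascular TCs (Fn1, Zeb2, Snai1; 40.3%) and 2 in latent TCs versus the proliferative pool (Vim, Fn1; 0.926%), and DESeq2 called 2 in the last (Cdh1, Fn1; 0.462%). In limma the sign turned for Cdh1 (-0.28), Epcam (-0.078), Zeb2 (-0.33) and Snai1 (-0.21) in extravascular versus intravascular TCs, for Vim (-0.18), Epcam (-0.058) and Twist1 (0.50) in latent versus extravascular TCs, for Zeb2 (0.42) and Snai2 (0.045) in ECs of day 1.5 and for Vim (1.02), Fn1 (0.43) and Snai2 (0.0094) in ECs of day 3.5. With upper quartile scaling it turned for Vim (-0.018), Cdh1 (-0.018) and Epcam (-0.010) in latent versus extravascular TCs, Twist1 (0.0017) against the proliferative pool and Vim (0.057) and Fn1 (0.032) in ECs of day 3.5, and without scaling for Twist1 (0.0014) in latent versus extravascular TCs. The median of all genes moved from -0.01 to -0.10 with upper quartile scaling in extravascular versus intravascular TCs, and from 0.03 to 0.16 without scaling in latent versus extravascular TCs. Without wells holding a marker of another cell type it turned for Zeb2 (-0.073) in extravascular versus intravascular TCs, in latent versus extravascular TCs for Cdh1 (-0.079), Epcam (-0.033) and Twist1 (0.14), and against the pool for Twist1 (0.086), which was 0.044 with at most 5% mitochondrial reads. In ECs of day 3.5 Fn1 was 0.053 with all cells above the gene minimum, and Cdh1 4.91 within the sort session.

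For shares, 4 members did not overlap between latent and extravascular TCs after thinning (21.7% of all genes), 1 with at least 1 read (18.1%) and 0 with at least 5 reads (2960 of 18516 genes), and 1 between extravascular and intravascular TCs with at least 5 reads (7.80%). The difference then turned for Zeb1 (0.068 points) and Snai1 (2.45 points), and after thinning for Epcam (1.46 points) and Snai2 (0.026 points) in latent versus extravascular TCs.

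Leaving out 1 library gave 0 to 1 called members in extravascular versus intravascular and 1 to 2 in latent versus extravascular TCs, and 0 to 3 and 2 to 4 for shares. Of all genes 0.0419% to 2.70% and 6.24% to 7.66% were then called, and 12.4% to 15.3% and 21.1% to 23.2% did not overlap in shares. Signs turned for Zeb1 (-0.85 to 0.87), Zeb2 (-0.18 to 0.40) and Snai1 (-0.023 to 0.52) in extravascular versus intravascular TCs. They turned for Vim (-0.065 to 0.13), Epcam (-0.082 to 0.15), Cdh1 (-0.088 to 0.12) and Zeb2 (-0.064 to 0.47) in latent versus extravascular TCs and for Twist1 (-0.25 to 0.051) against the pool. In ECs of day 1.5 they turned for Vim (-0.028 to 0.24), Zeb2 (-0.58 to 0.10), Zeb1 (-0.061 to 0.71) and Snai1 (-1.02 to 1.28), and on day 3.5 for Zeb1 (-0.39 to 0.25), Vim (-0.18 to 0.089), Fn1 (-0.38 to 0.13) and Cdh2 (-4.37 to 1.95). Share differences turned for Vim (-0.33 to 0.61 points) in extravascular versus intravascular TCs and for Epcam (-1.83 to 0.92 points) and Snai2 (-1.35 to 0.56 points) in latent versus extravascular TCs. Zeb1, Snai2 and Cdh2 in TCs and Cdh1, Epcam and Twist1 in ECs rest on few cells, as does the CPM of Snai2 in ECs, which limits the precision of their changes.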
